A study of Arabidopsis thaliana with 10 samples.

Results

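Leaves of an Arabidopsis thaliana line that overexpresses a mutant of the small GTPase Ran were compared with leaves of wild type Col (Col-0) in the light, before any dark treatment. The libraries were chosen by name, as the pair of count files with the headers Ran-G22V-D0-Set1 and Ran-G22V-D0-Set2 and the pair with the headers Col-D0-Set1 and Col-D0-Set2, which makes 4 of the 10 libraries of the study. Header and sample title disagree on the line: the samples of the first pair are titled RanT27N D0, with the genotype given as RanT27N. The labels describe RanT27N as the GDP form and RanG22V as the GTP form of Ran, so the line sampled here is RanG22V by file header and RanT27N by title, and nothing in the counts was used to settle which. It is called the Ran-G22V-headed pair below. Both names agree on D0, leaves taken without darkness, and the Col pair is named Col D0 in both places.

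The study profiled RNA of leaves of lines that overexpress RanT27N or RanG22V before and after 3 days in darkness, with Col as the wild type. All plants of the 4 libraries were 4 weeks old and untreated, and the fifth and the sixth leaf were taken. They grew at 22 °C with 16 h of light of 100 to 150 µmol per square metre and second and 8 h of darkness a day. Which Ran gene was overexpressed, under which promoter and in how many independent lines is not given in the sources used here. Each group has 2 libraries, and no label says that these came from separate plants. The p-values thus rest on the variation seen between libraries, part or all of which may be technical.

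Ran is a GTPase that gives nuclear import and export their direction: it is loaded with GTP in the nucleus, where it releases cargo from importins and joins exportins to theirs. Salicylic acid is the plant hormone of defence against biotrophic pathogens, and together with N-hydroxypipecolic acid it switches on the PATHOGENESIS-RELATED (PR) genes, whose products are secreted. Secreted and membrane proteins, immune receptors among them, fold in the endoplasmic reticulum (ER) with the help of BiP chaperones, calnexin, calreticulins and protein disulfide isomerases. When unfolded proteins build up there, the unfolded protein response raises these folding genes. The kinase and nuclease IRE1 and the transcription factor bZIP60 are among its components.

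The 4 libraries held 20739240 to 24496672 counts, of which ribosomal RNA took 19.7% and 17.8% in the Ran-G22V-headed pair and 21.7% and 24.9% in Col. Rows with a count numbered 22504 and 22717 in the Ran-G22V-headed pair and 21625 and 20896 in Col. Neither measure overlapped between the groups; with the ribosomal RNA rows left out 49 genes were called, all among the 53 described below, and the part of the number of detected rows was not tested. The leaf gene RBCS1A, a Rubisco small subunit, had 5301 and 3534 CPM (counts scaled to a common library size) in the Ran-G22V-headed pair and 3975 and 3996 CPM in Col. Of 15 genes that mark seeds, flowers, roots, pollen, meristems or dividing cells, AP1 and STM had 0 counts in all 4 libraries, and the 15 together reached 62.7 and 38.7 CPM in the Ran-G22V-headed pair and 54.6 and 39.2 CPM in Col. Of 11 markers of guard cells, trichomes, epidermis and phloem 0 were called, and the median log2 fold change was -0.36. Both Ran-G22V-headed libraries stood above both Col libraries in 0 of the 11, beside 19.4% of all genes tested. They stood below in 4 (36.4%), beside 16.5% of all genes tested. The 4 were FAMA, GC1 and MYB60 of guard cells and SUC2 of phloem. SUC2, a sucrose transporter, had 262 and 172 CPM in the Ran-G22V-headed pair and 271 and 283 CPM in Col, and GC1 had 26.1 and 28.9 CPM in the Ran-G22V-headed pair and 36.2 and 43.3 CPM in Col. CER1, a wax gene of the epidermis, had 0.139 and 12.4 CPM in the Ran-G22V-headed pair and 0 and 1.79 CPM in Col, so it was low or near 0 in 3 of the 4 libraries. Whether shares of leaf cell types took part in the differences below was not tested. SAG12, a protease gene of old leaves, had 0.139 and 1.22 CPM in the Ran-G22V-headed pair and 1.15 and 0 CPM in Col. It had 508 and 756 CPM in the libraries with Ran-G22V-D3 in their headers. Those libraries are titled RanG22V D0, so title and header disagree on their darkness. The gene was thus low in all 4 compared libraries. LHCB1.1, which encodes a light-harvesting protein, had 76.0 and 2763 CPM in Set1 and Set2 of the Ran-G22V-headed pair and 21.3 and 963 CPM in Set1 and Set2 of Col, so Set2 was the higher library in both groups.

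Of the Ran genes, RAN1 had 560.2 and 619.8 CPM in the Ran-G22V-headed pair and 437 and 256 CPM in Col, with a log2 fold change of 0.77 ± 0.37 (SE) and an edgeR adjusted p of 0.609. RAN2 had 85.0 and 104 CPM in the Ran-G22V-headed pair and 53.5 and 51.2 CPM in Col, and RAN3 had 46.4 and 49.95 CPM in the Ran-G22V-headed pair and 52.1 and 53.9 CPM in Col. No Ran gene passed the test. The libraries headed Ran-T27N-D0, titled RanT27N D3, had 1518 and 1334 CPM of RAN1. Counts per gene hold no base of the mutant codon, and reads of a transgene that lacks the native 3′ end may not be counted for its gene, so these levels do not check the line's name.

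Across all genes, 53 of 21475 tested passed edgeR's quasi-likelihood test at a Benjamini-Hochberg adjusted p below 0.05, which is 0.247% and defines a called gene. Of these, 52 (0.242%) rose and 1 (0.00466%) fell in the Ran-G22V-headed pair against Col, and in all 53 the libraries of the groups did not overlap. The genes that rose did so by at least 3.44-fold. At an unadjusted p below 0.05 there were 1212 genes (5.64%) higher and 652 (3.04%) lower, while both Ran-G22V-headed libraries stood above both Col libraries in 19.4% of genes and below in 16.5%. The median log2 fold change of all genes tested was -0.00. By group, 11 of the called genes encode ER folding proteins, 5 are in immune lists, 5 in a list of mitochondrial and xenobiotic responses, 3 serve nuclear transport or the nuclear pore, 3 encode histones, 1 is a senescence marker and 25 are in no list. The lists were chosen with earlier results of these data known, so their counts describe these data and are no independent test. Of the 52 called genes with a locus, 9 overlap another annotated gene.

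The spread of all 10 libraries enters this test, and the number of calls depends on it. Fitted on the 4 compared libraries alone, edgeR called 0 genes, with 1058 at an unadjusted p below 0.05, whereas DESeq2 on all 10 called 399 (1.86%), which include all 53. Without Col replicate 2 no gene was called, and without Col replicate 1 there were 23, of which 11 were among the 53. Without replicate 1 of the Ran-G22V-headed pair 46 were called, 29 of them among the 53, and without its replicate 2 there were 21, 19 of them among the 53. All 53 genes kept their direction in each of these fits.

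**Figure D1:**
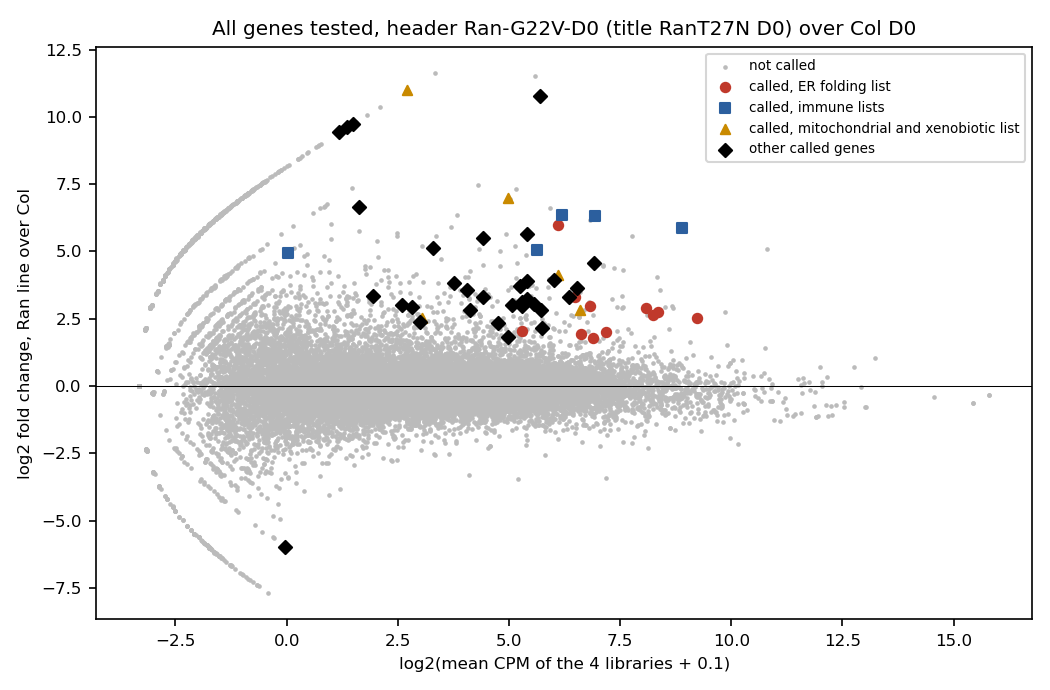
Log2 fold change of the Ran-G22V-headed pair over Col (y axis) against mean level (x axis, log2 of CPM + 0.1) for 21475 genes; each point is a gene, and coloured points are called genes by list. The 52 genes that rose lie at log2 fold changes of 1.78 or more, and the arcs at the left are genes with few or 0 counts in a group, whose fitted fold depends on the prior count.

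ER folding genes were the largest listed group among the called genes. Of 24 such genes, all tested, 11 rose, 0 fell and 13 did not pass, against 0.242% of all genes that rose, and the median log2 fold change of the list was 2.13, against -0.00 for all genes. At an unadjusted p below 0.05, 20 of the 24 were higher, against 5.64% of all genes. In 20 both Ran-G22V-headed libraries stood above both Col libraries and in 2 below, against 19.4% and 16.5% of all genes. In bulk leaf RNA, a change in the share of cells that express a gene and a change in RNA per cell cannot be told apart.

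BIP3, the stress-inducible member of the ER Hsp70 chaperones, had 73.3 and 196 CPM in the Ran-G22V-headed pair against 2.15 and 2.07 CPM in Col. Both Ran-G22V-headed libraries exceeded Col by over an order of magnitude, with a log2 fold change of 5.99 ± 0.80 and an edgeR adjusted p of 0.0299. BIP2 had 410.1 and 546 CPM in the Ran-G22V-headed pair and 86.0 and 43.3 CPM in Col, a log2 fold change of 2.89 ± 0.40 (edgeR adjusted p = 0.0348). BIP1, with 546 and 712 CPM in the Ran-G22V-headed pair and 175 and 111 CPM in Col, missed the threshold at an edgeR adjusted p of 0.0523. BIP1 and BIP2 are near-identical in sequence, so how reads were shared between them is uncertain. ERDJ3B and SDF2, which act with BiP as a complex, rose too: ERDJ3B had 172 and 231 CPM in the Ran-G22V-headed pair and 32.3 and 19.5 CPM in Col, a log2 fold change of 2.96 ± 0.34 (edgeR adjusted p = 0.0129). SDF2 had 63.0 and 62.3 CPM in the Ran-G22V-headed pair and 11.3 and 19.1 CPM in Col, a log2 fold change of 2.04 ± 0.31. SHD, the Hsp90 of the ER, had 458 and 578 CPM in the Ran-G22V-headed pair and 88.4 and 76.5 CPM in Col, so its libraries were far apart between groups and close within them (log2 fold change 2.65 ± 0.34, edgeR adjusted p = 0.0232).

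The lectin chaperones, which hold glycoproteins until they are folded, gave 3 called genes. CNX1, a calnexin, had 435 and 704 CPM in the Ran-G22V-headed pair and 109.8 and 61.2 CPM in Col, a log2 fold change of 2.74 ± 0.40. CRT1A, a calreticulin, had 199 and 264 CPM in the Ran-G22V-headed pair and 55.6 and 61.2 CPM in Col, a log2 fold change of 1.99 ± 0.29. CRT3, the calreticulin needed for the immune receptor EFR, had 1234 and 819.6 CPM in the Ran-G22V-headed pair and 214 and 143 CPM in Col, and was the member closest to the threshold (log2 fold change 2.52 ± 0.40, edgeR adjusted p = 0.0499). CRT1B, with 111 and 177 CPM in the Ran-G22V-headed pair and 23.1 and 23.55 CPM in Col, and the co-chaperone P58IPK, with 112 and 188 CPM in the Ran-G22V-headed pair and 32.1 and 17.57 CPM in Col, did not pass, at edgeR adjusted p of 0.0580 and 0.0644.

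Among the protein disulfide isomerases, which form the disulfide bonds of secreted proteins, PDIL1-1, PDIL1-2 and PDIL2-1 rose. PDIL1-2 had 148 and 180.2 CPM in the Ran-G22V-headed pair and 16.5 and 16.3 CPM in Col, a log2 fold change of 3.32 ± 0.44. PDIL1-1 had 176 and 135 CPM in the Ran-G22V-headed pair and 44.8 and 37.4 CPM in Col, a log2 fold change of 1.92 ± 0.28. PDIL2-1 had 184 and 185 CPM in the Ran-G22V-headed pair and 55.8 and 51.6 CPM in Col, a log2 fold change of 1.78 ± 0.26; it overlaps the called gene AT2G47480 on the other strand by 97 bases, and without a stated strand setting the reads there cannot be told apart. In none of the 3 did the groups overlap. Their edgeR adjusted p ran from 0.0299 for PDIL1-2 to 0.0391 for PDIL1-1.

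**Figure D2:**
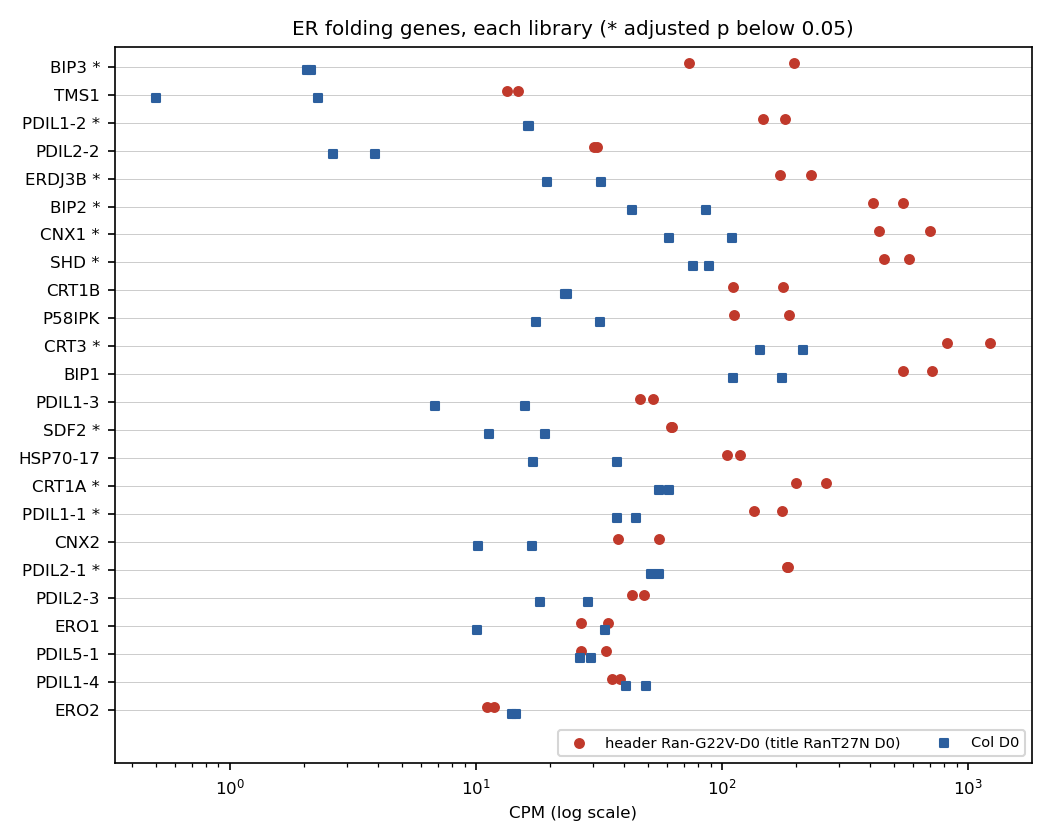
CPM (x axis, log scale) of the 24 ER folding genes in each of the 4 libraries, ordered by fold change; circles are the Ran-G22V-headed pair, squares Col, and an asterisk marks an adjusted p below 0.05. In 20 of 24 genes both circles lie right of both squares, while ERO1 and PDIL5-1 overlap and PDIL1-4 and ERO2 are lower.

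The stretches before the start of 5 of these genes are shown because they hold the ER stress response element ERSE-I, known from plant and animal ER chaperone genes as a site of bZIP factors with NF-Y. ERSE-I was searched as CCAAT followed after 10 bases by CACG and the related element UPRE as TGACGTGG, on both strands of the 300 bases before the annotated start, in the RefSeq annotation of TAIR10.1. Capitals mark a match to either motif on either strand.
BIP3: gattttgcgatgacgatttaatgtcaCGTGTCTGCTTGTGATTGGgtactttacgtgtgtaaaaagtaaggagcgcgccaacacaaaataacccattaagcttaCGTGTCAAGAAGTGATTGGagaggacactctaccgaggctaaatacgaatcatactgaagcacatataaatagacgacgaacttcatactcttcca
CRT1A: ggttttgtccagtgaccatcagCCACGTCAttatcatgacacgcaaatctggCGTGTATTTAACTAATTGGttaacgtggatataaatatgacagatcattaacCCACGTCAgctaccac
PDIL1-1: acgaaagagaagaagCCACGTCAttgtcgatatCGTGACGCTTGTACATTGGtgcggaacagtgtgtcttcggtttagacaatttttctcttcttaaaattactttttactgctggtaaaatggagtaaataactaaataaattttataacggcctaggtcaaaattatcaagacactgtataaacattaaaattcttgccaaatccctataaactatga
PDIL1-2: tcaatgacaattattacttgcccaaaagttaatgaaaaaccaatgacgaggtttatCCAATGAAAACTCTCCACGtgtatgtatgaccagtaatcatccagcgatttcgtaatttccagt
SHD: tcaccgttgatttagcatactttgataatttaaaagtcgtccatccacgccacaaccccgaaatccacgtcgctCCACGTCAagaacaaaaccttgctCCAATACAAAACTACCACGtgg

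They lie at chr1:2931851-2932050 (minus strand) for BIP3, chr1:21092710-21092829 (minus strand) for CRT1A, chr1:7645390-7645609 (plus strand) for PDIL1-1, chr1:29126528-29126647 (plus strand) for PDIL1-2 and chr4:12556059-12556178 (minus strand) for SHD, each ending at the base before the start. BIP3 holds ERSE-I at 2 places, and CRT1A, PDIL1-1 and SHD also hold UPRE. ERSE-I was found before 5 of the 11 ER folding genes that rose (45.5%), before 7 of all 24 ER folding genes (29.2%), before 0 of the 40 other genes that rose and before 183 of 20973 genes tested (0.873%). UPRE was found before 3 of the 11 (27.3%), 4 of the 24 (16.7%), 0 of the 40 and 1.53% of all. The element ERSE-II, searched as ATTGG followed after 1 base by CCACG, was found before 0 of the 11 and 0.062% of all. A match is a run of letters and does not show that a factor binds there.

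Genes of ER import, glycosylation and degradation lay higher as well but none passed the test. Of 23 tested, 0 were called, 15 were higher at an unadjusted p below 0.05 against 5.64% of all genes, and the median log2 fold change was 0.95. UTR1, a nucleotide sugar transporter of the ER, had 27.9 and 33.7 CPM in the Ran-G22V-headed pair and 4.24 and 2.18 CPM in Col (log2 fold change 3.26 ± 0.54, edgeR adjusted p = 0.0580). SEC61G, a subunit of the Sec61 channel through which proteins enter the ER, had 178 and 187 CPM in the Ran-G22V-headed pair and 64.3 and 44.2 CPM in Col (log2 fold change 1.75 ± 0.30, edgeR adjusted p = 0.0648). HRD1B, a ubiquitin ligase that marks misfolded ER proteins, had 30.7 and 47.3 CPM in the Ran-G22V-headed pair and 8.93 and 8.06 CPM in Col (log2 fold change 2.198 ± 0.38, edgeR adjusted p = 0.0669). The channel genes SEC61B and SEC61A1 had log2 fold changes of 1.24 and 2.04, and in both the libraries of the groups did not overlap.

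The list of ER stress signalling had 0 of 12 tested genes called and a median log2 fold change of -0.03. BZIP60 had 789 and 351 CPM in the Ran-G22V-headed pair and 476 and 403 CPM in Col, so the groups overlapped (log2 fold change 0.37 ± 0.41, edgeR adjusted p = 0.830); counts per gene do not separate its spliced form. IRE1A had 22.0 and 10.4 CPM in the Ran-G22V-headed pair and 20.8 and 14.3 CPM in Col, also overlapping. BI1, which limits ER stress cell death, was above Col in both libraries, with 212 and 189 CPM in the Ran-G22V-headed pair and 96.6 and 111 CPM in Col, but did not pass (edgeR adjusted p = 0.383). Over the 3 ER lists, 11 of 59 genes tested rose and 0 fell, and their median log2 fold change was 1.06. The count of 11 was 0 without Col replicate 2, 2 without Col replicate 1, 7 and 1 without replicate 1 and replicate 2 of the Ran-G22V-headed pair, 0 on the 4 libraries alone and 26 with DESeq2.

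Within the immune lists, all called genes came from the lists for salicylic acid. The called chitinase gene AT2G43570 and receptor kinase gene AT1G51890 are in no list and are given further below. Over 5 immune lists, 5 of 146 genes tested rose and 0 fell, against 0.242% and 0.00466% of all genes, with a median log2 fold change of 0.36. At an unadjusted p below 0.05, 33 (22.6%) were higher and 5 (3.42%) lower, against 5.64% and 3.04% of all genes. The enzymes of salicylic acid and N-hydroxypipecolic acid had 2 of 21 called and a median of 1.26, and the salicylic acid response genes 3 of 43 and a median of 0.63. The other 3 lists had 0 called.

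AIG1, a GTPase gene switched on by avirulent bacteria, had the smallest p of the immune genes, with 97.6 and 192 CPM in the Ran-G22V-headed pair and 1.65 and 1.85 CPM in Col. Its log2 fold change was 6.37 ± 0.57 (edgeR adjusted p = 0.0105). PR5, a secreted thaumatin-like protein, had 1425 and 439.6 CPM in the Ran-G22V-headed pair and 12.5 and 19.2 CPM in Col, a log2 fold change of 5.88 ± 0.91 (edgeR adjusted p = 0.0456). PNP-A, a secreted peptide, had 129 and 63.4 CPM in the Ran-G22V-headed pair and 3.19 and 2.52 CPM in Col, a log2 fold change of 5.07 ± 0.69 (edgeR adjusted p = 0.0299). All 3 were low in both Col libraries and high in both Ran-G22V-headed libraries, which differed most from each other in PR5. PR1, the standard marker of salicylic acid responses, had 668 and 189 CPM in the Ran-G22V-headed pair and 1.397 and 16.7 CPM in Col; the groups did not overlap, but each spread widely and the gene was not called (log2 fold change 5.57 ± 1.25, edgeR adjusted p = 0.165). PR2, a secreted glucanase, had 4246 and 2671 CPM in the Ran-G22V-headed pair and 175 and 30.1 CPM in Col and was not called either (log2 fold change 5.08 ± 0.96, edgeR adjusted p = 0.0967). AED1, an apoplastic protease, had 890.4 and 568 CPM in the Ran-G22V-headed pair and 107 and 87.7 CPM in Col (edgeR adjusted p = 0.120).

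Among the enzymes, DLO1 and MES9 were called. DLO1, a salicylic acid hydroxylase, had 122 and 361 CPM in the Ran-G22V-headed pair and 3.79 and 2.29 CPM in Col, a log2 fold change of 6.31 ± 0.81 (edgeR adjusted p = 0.0240). MES9, an esterase that frees salicylic acid from its methyl ester, was at 86 counts over the Ran-G22V-headed pair and 2 over Col, a ratio of 34.7 with an exact 95% interval of 9.32 to 291 that covers counting error only. DMR6, another hydroxylase, had 229.5 and 446 CPM in the Ran-G22V-headed pair and 54.4 and 12.8 CPM in Col, and was not called (edgeR adjusted p = 0.148). ICS1, which makes isochorismate for salicylic acid, had 296 and 94.6 CPM in the Ran-G22V-headed pair and 41.9 and 10.13 CPM in Col, with no overlap but an edgeR adjusted p of 0.433. FMO1, which makes N-hydroxypipecolic acid, had 23.8 and 16.1 CPM in the Ran-G22V-headed pair and 0.798 and 0 CPM in Col (edgeR adjusted p = 0.0975), and SARD4, a reductase on the way to it, had 57.0 and 60.7 CPM in the Ran-G22V-headed pair and 19.96 and 7.39 CPM in Col (edgeR adjusted p = 0.140). UGT76B1, which puts glucose on both compounds, was split between the Ran-G22V-headed libraries at 1.29 and 192 CPM, against 0 and 0.0559 CPM in Col, so a single library carried its level.

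**Figure D3:**
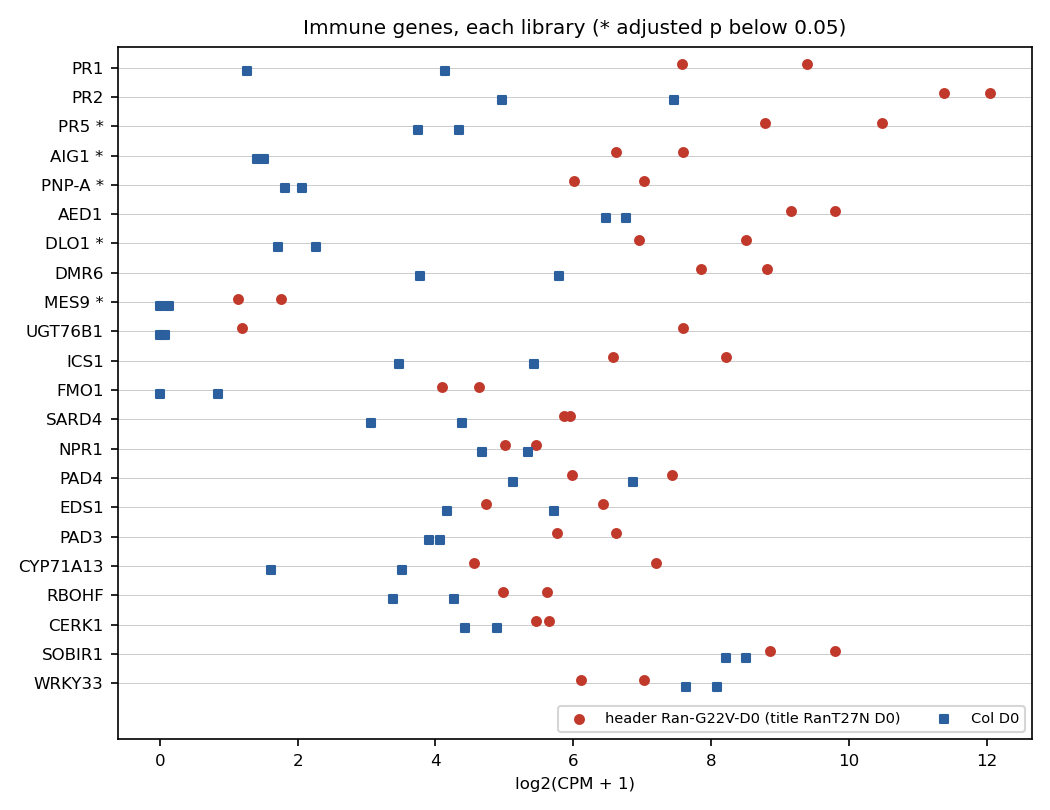
Levels of 22 immune genes in each of the 4 libraries as log2(CPM + 1) (x axis); circles are the Ran-G22V-headed pair, squares Col, and an asterisk marks an adjusted p below 0.05. PR1, PR2 and ICS1 do not overlap between groups but spread within them, whereas NPR1, PAD4 and EDS1 overlap.

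Of the regulators upstream of these genes, NPR1, PAD4 and EDS1 overlapped between the groups. NPR1, a salicylic acid receptor, had 43.1 and 31.3 CPM in the Ran-G22V-headed pair and 39.7 and 24.4 CPM in Col, PAD4 had 171 and 61.8 CPM in the Ran-G22V-headed pair and 116 and 34.0 CPM in Col, and EDS1 had 85.0 and 25.6 CPM in the Ran-G22V-headed pair and 51.5 and 16.9 CPM in Col. In each of the 3, replicate 1 was the higher library in both groups, and none passed the test. Of 41 pattern-triggered immunity genes 0 were called, with a median log2 fold change of -0.00. Of these 41, 7 (17.1%) were higher and 2 (4.88%) lower at an unadjusted p below 0.05, against 5.64% and 3.04% of all genes. Of 25 NLR receptor and signalling genes 0 were called, with a median of -0.06, and by the same measure 1 (4%) was higher and 1 (4%) lower. Single members lay apart without passing: RBOHF, an oxidase of the oxidative burst, had 48.1 and 30.4 CPM in the Ran-G22V-headed pair and 18.3 and 9.46 CPM in Col, and WRKY33, a transcription factor of defence against fungi, had 129 and 67.8 CPM in the Ran-G22V-headed pair and 197 and 271 CPM in Col. PAD3, the last enzyme of the antimicrobial camalexin, had 53.2 and 97.6 CPM in the Ran-G22V-headed pair and 15.7 and 14.0 CPM in Col (log2 fold change 2.34 ± 0.41, edgeR adjusted p = 0.0669), one of 16 tested genes of camalexin and tryptophan, 0 of which were called. The count of 5 called immune genes was 0 without Col replicate 2, 3 without Col replicate 1, 6 and 4 without replicate 1 and replicate 2 of the Ran-G22V-headed pair, 0 on the 4 libraries alone and 21 with DESeq2.

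A further list holds genes known to respond to failing mitochondria and to foreign chemicals. Like the other lists, it was chosen with earlier results of these data known. Of 19 tested, 5 rose, 0 fell and 14 did not pass, against 0.242% of all genes that rose. At an unadjusted p below 0.05, 11 were higher, against 5.64% of all genes, and the median log2 fold change was 1.81. Both Ran-G22V-headed libraries stood above both Col libraries in 14 (73.7%) and below in 2 (10.5%), against 19.4% and 16.5% of all genes. AT2G18193, an AAA-type ATPase, had 61.2 and 62.6 CPM in the Ran-G22V-headed pair against 0.399 and 0.559 CPM in Col, a log2 fold change of 7.001 ± 0.70 (edgeR adjusted p = 0.0125). DTX3, a MATE efflux transporter, had 11.5 and 14.3 CPM in the Ran-G22V-headed pair and 0 counts in both Col libraries, and was at least 81.1-fold higher with 3 counts set for each Col library. Both genes were thus nearly or fully silent in Col. UPOX, a mitochondrial gene of oxidative stress, had 12.7 and 15.0 CPM in the Ran-G22V-headed pair and 1.65 and 3.13 CPM in Col, a log2 fold change of 2.53 ± 0.38 (edgeR adjusted p = 0.0397). SOT12, a sulfotransferase, had 192 and 149.7 CPM in the Ran-G22V-headed pair and 21.4 and 26.3 CPM in Col, a log2 fold change of 2.84 ± 0.34 (edgeR adjusted p = 0.0155). AT2G41730 had 153 and 105 CPM in the Ran-G22V-headed pair and 5.94 and 8.95 CPM in Col, a log2 fold change of 4.11 ± 0.49. AOX1A, the alternative oxidase that marks this response, had 227 and 159 CPM in the Ran-G22V-headed pair and 57.4 and 58.6 CPM in Col and missed the threshold (log2 fold change 1.74 ± 0.32, edgeR adjusted p = 0.0797).

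The stretches before 5 genes that rose are shown for the mitochondrial dysfunction motif, the site of NAC factors such as ANAC017, searched on both strands as CTTG followed after 5 bases by CACG or CAAG. Capitals mark a match.
AT5G55150: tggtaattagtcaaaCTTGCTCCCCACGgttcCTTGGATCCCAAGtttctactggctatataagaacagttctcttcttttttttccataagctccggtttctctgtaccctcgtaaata
DTX3: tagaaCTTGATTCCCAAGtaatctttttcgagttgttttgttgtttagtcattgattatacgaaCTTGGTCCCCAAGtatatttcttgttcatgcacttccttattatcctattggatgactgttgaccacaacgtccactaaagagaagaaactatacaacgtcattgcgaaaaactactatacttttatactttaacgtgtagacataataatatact
AT2G18193: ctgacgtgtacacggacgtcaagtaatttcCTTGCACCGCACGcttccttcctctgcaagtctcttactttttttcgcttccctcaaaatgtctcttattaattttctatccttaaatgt
UPOX: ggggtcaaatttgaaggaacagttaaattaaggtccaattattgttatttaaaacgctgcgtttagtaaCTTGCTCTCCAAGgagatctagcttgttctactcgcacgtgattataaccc
CYP81D8: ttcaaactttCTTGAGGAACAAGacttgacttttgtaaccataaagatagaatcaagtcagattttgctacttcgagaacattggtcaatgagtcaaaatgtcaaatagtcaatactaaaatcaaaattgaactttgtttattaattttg

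In TAIR10.1 they lie at chr5:22383393-22383512 (minus strand) for AT5G55150, chr2:1339469-1339688 (minus strand) for DTX3, chr2:7919346-7919465 (minus strand) for AT2G18193, chr2:9254258-9254377 (plus strand) for UPOX and chr4:17571744-17571893 (minus strand) for CYP81D8. Within 300 bases before the start the motif stood before 8 of the 40 genes that rose outside the ER folding list (20%). Of these 8, the 3 not shown are AT1G51890, AT4G12735 and AT4G28460. The motif stood before 0 of the 11 ER folding genes that rose and before 241 of 20973 genes tested (1.15%). Of the 19 genes of the mitochondrial and xenobiotic list, 5 held it (26.3%). The form with CAAG reads the same on both strands, and a gene was counted once however many matches it held. AT5G55150, which encodes a DUF295 protein, had 127 and 80.6 CPM in the Ran-G22V-headed pair and 0.0998 and 0 CPM in Col, which held 2 counts in all; the ratio was 1934 with an exact 95% interval of 535 to 15978. CYP81D8, a cytochrome P450 gene of chemical stress, had 33.8 and 43.0 CPM in the Ran-G22V-headed pair and 4.19 and 3.52 CPM in Col, a log2 fold change of 3.31 ± 0.38 (edgeR adjusted p = 0.0129). The W-box of WRKY factors, TTGACC or TTGACT, stood before 18 of the 40 (45%) and before 31.8% of all genes tested.

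A few genes of the nuclear pore and of the Ran cycle rose, and in these the pair headed Ran-T27N-D0 stood above Col as well. That pair is titled RanT27N D3, so its title gives 3 days of darkness and its header gives none. Other called genes went either way in that pair. HTA6, a histone gene, had 26.8 and 18.6 CPM there against 6.29 and 8.62 CPM in Col. CAX3, an exchanger gene, had 4.87 and 8.02 CPM there against 14.2 and 13.0 CPM in Col. MOG1, which helps to release nucleotide from Ran, had 74.5 and 65.5 CPM in the Ran-G22V-headed pair and 6.64 and 3.86 CPM in Col, a log2 fold change of 3.73 ± 0.41 (edgeR adjusted p = 0.0129), beside 47.6 and 41.0 CPM in the libraries headed Ran-T27N-D0. RAE1, a pore protein of mRNA export, had 88.3 and 80.3 CPM in the Ran-G22V-headed pair and 10.7 and 9.90 CPM in Col, a log2 fold change of 3.03 ± 0.30 (edgeR adjusted p = 0.0125), beside 55.9 and 50.9 CPM in the libraries headed Ran-T27N-D0. NUP98B, a pore protein, had 68.9 and 71.0 CPM in the Ran-G22V-headed pair and 12.3 and 3.58 CPM in Col, a log2 fold change of 3.13 ± 0.50 (edgeR adjusted p = 0.0499), beside 85.4 and 80.9 CPM in the libraries headed Ran-T27N-D0. The RNA-binding protein gene AT1G72800, which is in no list, had 83.9 and 90.6 CPM in the Ran-G22V-headed pair and 24.0 and 15.0 CPM in Col. Its log2 fold change was 2.16 ± 0.34, beside 75.4 and 61.3 CPM in the libraries headed Ran-T27N-D0. It overlaps AT1G72810 on the other strand by 624 bases, and without a stated strand setting the reads there cannot be told apart. AT1G72810 had a log2 fold change of 1.82 (edgeR adjusted p = 0.0523). Against Col the Ran-T27N-D0 libraries gave log2 fold changes of 3.07 ± 0.40 for MOG1 and 2.37 ± 0.29 for RAE1, with edgeR adjusted p of 0.115 and 0.0994 and 0 of 21475 genes called; both comparisons use the same Col libraries.

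MOG1 was the one gene called of 21 tested for Ran and nuclear transport, whose median log2 fold change was 0.27, and RAE1 and NUP98B were 2 called of 32 nuclear pore genes with a median of 0.08, beside 0.242% of all genes that rose. Both Ran-G22V-headed libraries stood above both Col libraries in 11 of the 32 pore genes and below in 8, which is 34.4% and 25%, against 19.4% and 16.5% of all genes. IMPA4, an importin, had 60.2 and 66.6 CPM in the Ran-G22V-headed pair and 40.6 and 39.8 CPM in Col, and NUP107, a scaffold protein of the pore, had 2.17 and 2.41 CPM in the Ran-G22V-headed pair and 3.99 and 6.94 CPM in Col. Neither passed the test. The nuclear pore list and MOG1's place among the Ran genes were set after their values had been seen.

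**Figure D4:**
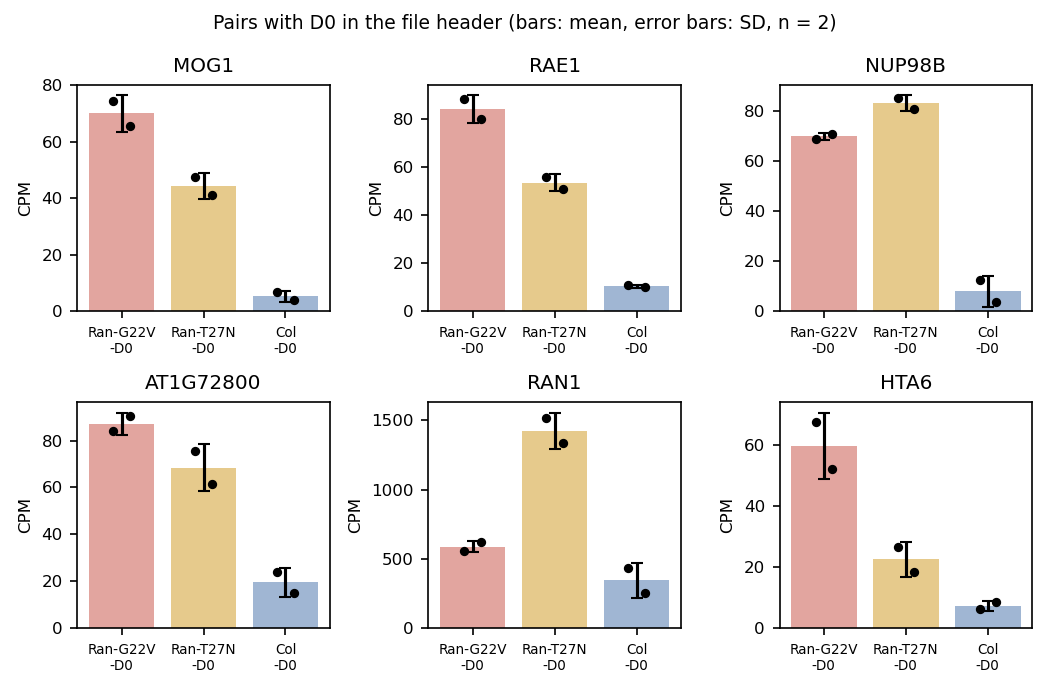
CPM (y axis) of 6 genes in the pairs with Ran-G22V-D0, Ran-T27N-D0 and Col-D0 in their headers. Their titles are RanT27N D0, RanT27N D3 and Col D0. Bars are means, error bars SD (n = 2) and points libraries. MOG1, RAE1, NUP98B and AT1G72800 are high in both Ran pairs, RAN1 is highest in the Ran-T27N-D0 pair, and HTA6 is highest in the Ran-G22V-headed pair.

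Among histone genes 2 with a locus and a row without one were called. HTA6, a histone H2A of silent chromatin, had 67.6 and 52.1 CPM in the Ran-G22V-headed pair and 6.29 and 8.62 CPM in Col, a log2 fold change of 3.00 ± 0.33 (edgeR adjusted p = 0.0129). The histone gene AT3G53650 had 11.6 and 14.9 CPM in the Ran-G22V-headed pair and 2.69 and 2.41 CPM in Col, a log2 fold change of 2.38 ± 0.34 (edgeR adjusted p = 0.0366). A row named H3.1, a name that several rows share and that was paired with no locus, was called too, with 44.1 and 54.2 CPM in the Ran-G22V-headed pair and 12.3 and 15.3 CPM in Col. Of 42 histone genes tested, 2 rose, 0 fell and 40 did not pass, against 0.242% of all genes that rose. At an unadjusted p below 0.05, 15 were higher and 0 lower, against 5.64% and 3.04% of all genes, and the median log2 fold change was 0.75. The DNA replication and repair list, set after values had been seen, had 0 of 28 called, 8 (28.6%, beside the same 5.64%) higher at an unadjusted p below 0.05 and a median of 0.72. RNR1, a subunit of ribonucleotide reductase, had 22.3 and 30.9 CPM in the Ran-G22V-headed pair and 6.24 and 6.88 CPM in Col (edgeR adjusted p = 0.0547), and FEN1, a flap endonuclease, had 11.7 and 14.8 CPM in the Ran-G22V-headed pair and 2.29 and 1.85 CPM in Col (edgeR adjusted p = 0.0897).

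The octamer CGCGGATC, known from plant histone promoters, stood within 300 bases before 6 of the 42 histone genes (14.3%) and 34 of 20973 genes tested (0.162%). HTA6 holds it, shown in capitals in the 120 bases before its start at chr5:24116221-24116340 (minus strand).
HTA6: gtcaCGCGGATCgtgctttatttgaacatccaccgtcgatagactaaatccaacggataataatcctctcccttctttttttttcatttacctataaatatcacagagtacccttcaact

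Further genes that rose belong to no single process. CAX3, a vacuolar calcium and proton exchanger, had 195 and 145 CPM in the Ran-G22V-headed pair and 14.2 and 13.0 CPM in Col, a log2 fold change of 3.65 ± 0.37 (edgeR adjusted p = 0.0127). The chitinase gene AT2G43570 had 101 and 64.8 CPM in the Ran-G22V-headed pair and 1.80 and 1.51 CPM in Col, a log2 fold change of 5.64 ± 0.61 (edgeR adjusted p = 0.0129). SAG13, an early marker of senescence and stress, had 105 and 78.8 CPM in the Ran-G22V-headed pair and 13.0 and 12.8 CPM in Col, and was the one gene called of 22 tested senescence genes (log2 fold change 2.83 ± 0.39, edgeR adjusted p = 0.0344). That is 1 of 22, against 0.242% of all genes that rose. The senescence list had a median of 0.30 (log2). At an unadjusted p below 0.05, 4 of the 22 were higher and 1 lower, against 5.64% and 3.04% of all genes. Both Ran-G22V-headed libraries stood above both Col libraries in 7 of the 22 and below in 2, against 19.4% and 16.5% of all genes. ANAC087, a NAC transcription factor, had 12.8 and 11.96 CPM in the Ran-G22V-headed pair and 1.75 and 1.45 CPM in Col, and AT3G46080, a zinc finger factor, had 108 and 45.5 CPM in the Ran-G22V-headed pair and 10.7 and 5.54 CPM in Col. The receptor kinase gene AT1G51890 had 23.1 and 27.3 CPM in the Ran-G22V-headed pair and 2.34 and 1.17 CPM in Col, a log2 fold change of 3.83 ± 0.59.

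Several secreted or wall proteins were among the called genes. EXT3, an extensin of the cell wall, had 289.9 and 174 CPM in the Ran-G22V-headed pair and 4.24 and 15.2 CPM in Col (log2 fold change 4.58 ± 0.69); it overlaps the called gene AT1G21313 on the other strand by 522 bases, so the reads of the 2 cannot be told apart. AT3G22600, a lipid transfer protein, had 161 and 79.9 CPM in the Ran-G22V-headed pair and 7.13 and 8.73 CPM in Col (log2 fold change 3.93 ± 0.63). The peroxidase gene AT4G37530 had 12.9 and 48.3 CPM in the Ran-G22V-headed pair and 2.79 and 2.41 CPM in Col, and SBT3.5, a subtilase, had 6.70 and 7.02 CPM in the Ran-G22V-headed pair and 0.898 and 0.448 CPM in Col. Genes with 0 counts in both Col libraries were AT2G42480, AT5G27980 and IAA30, an auxin response repressor, at least 31.1, 34.3 and 27.4-fold higher; AT5G27980 overlaps another gene by 218 bases. AT4G28460 held 273 counts over the Ran-G22V-headed pair and 2 over Col, a ratio of 110.2 with an exact 95% interval of 30.2 to 914. The other called genes, AATP1, AT1G13520, AT1G28760, AT2G47480, AT4G12735, AT4G29520 and AT5G17760, rose by 5.07-fold (AT5G17760) to 35.1-fold (AT1G13520), and AT4G29520 overlaps AT4G29510 on the other strand by 91 bases.

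GLYI4, of the glyoxalase I family that detoxifies methylglyoxal, was the one gene that fell. It held 1 count over the Ran-G22V-headed pair, 0 and 0.0395 CPM, and 66 over Col, 1.90 and 1.57 CPM. Col was higher by a ratio of 81.8, with an exact 95% interval of 14.2 to 3278, and the edgeR adjusted p was 0.0499.

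Many other processes had no called gene. The medians were negative for flavonoids and anthocyanins (-0.85, 17 tested), glucosinolates (-0.66, 21 tested), jasmonate (-0.57, 36 tested), light harvesting (-0.37, 40 tested), abscisic acid and cold (-0.27, 30 tested), ethylene (-0.18, 22 tested) and the Calvin cycle (-0.16, 20 tested), with 0 called in each. SOT18, a glucosinolate sulfotransferase, had 18.02 and 21.3 CPM in the Ran-G22V-headed pair and 34.1 and 52.9 CPM in Col (log2 fold change -1.15 ± 0.29, edgeR adjusted p = 0.249). ERF6, an ethylene response factor, had 16.8 and 15.7 CPM in the Ran-G22V-headed pair and 31.5 and 159.7 CPM in Col, the Col libraries being far apart from each other. JAZ8, a jasmonate repressor, had 14.2 and 4.104 CPM in the Ran-G22V-headed pair and 26.2 and 23.0 CPM in Col, while TAT3, a jasmonate-induced aminotransferase, stood the other way with 312 and 901 CPM in the Ran-G22V-headed pair and 65.6 and 8.34 CPM in Col. ABI5, an abscisic acid factor, had 0.647 and 1.38 CPM in the Ran-G22V-headed pair and 4.44 and 7.39 CPM in Col. None of these 5 passed the test, with edgeR adjusted p from 0.249 for SOT18 to 0.498 for JAZ8. Autophagy, heat shock, the circadian clock, dark starvation and secretion had 0 called, with medians of 0.13, 0.20, -0.22, -0.10 and 0.19.

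**Figure D5:**
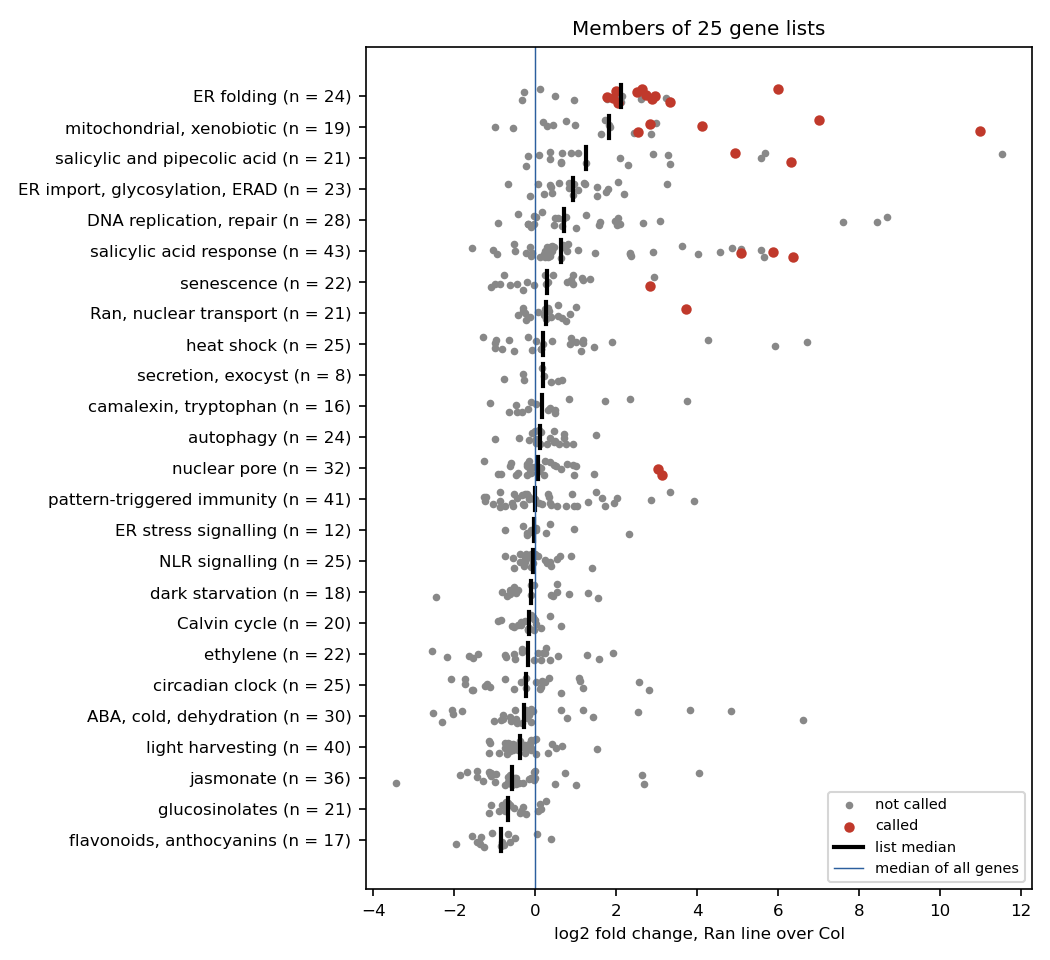
Log2 fold change of the Ran-G22V-headed pair over Col (x axis) for the tested members of 25 gene lists, ordered by median; each point is a gene, black bars are list medians, red points are called genes and the blue line is the median of all genes. ER folding has the highest median at 2.13 and flavonoids and anthocyanins the lowest at -0.85.

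Gene families taken by words in their descriptions added few calls. Receptor-like proteins, which include receptors of microbial patterns, had 0 of 48 tested called, but 24 with both Ran-G22V-headed libraries above both Col libraries (19.4% of all genes do so) and a median log2 fold change of 1.02. Cysteine-rich receptor-like kinases had 0 of 33 called and 14 such genes, with a median of 0.59, and lipid transfer proteins 1 of 56 and 23, with a median of 0.80. Xyloglucan endotransglucosylases, which remodel the cell wall, had 0 of 19 called and a median of 0.98. WRKY transcription factors had 0 of 54 called, 13 (24.1%, beside 5.64% of all genes) higher at an unadjusted p below 0.05 and a median of 0.40. Coat and vesicle proteins, which carry cargo from the ER onward, had 0 of 41 called, with 26 (63.4%) above and 2 (4.88%) below Col in both libraries. Ribosomal proteins had 0 of 314 called, with 144 (45.9%) above and 25 (7.96%) below, beside 19.4% and 16.5% of all genes. NLR receptors had 0 of 119 called, with 16 (13.4%) above and 30 (25.2%) below Col in both libraries, beside 19.4% and 16.5% of all genes.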

How the data were processed

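RNA of leaves was sequenced with a Lexogen QuantSeq kit, per the labels' protocols; a kit of this kind sequences a short part of a transcript, and gene length was not corrected for. The authors deposited a table of raw counts for each library, with 33028 rows. TAIR10, Bowtie2 and edgeR are named in the submitters' processing notes; how reads were counted, and with regard to strand or not, is not given in the sources used here. Rows were paired with loci by name through the RefSeq TAIR10.1 gene table (98.6% of rows; 429 rows share a name and have no locus).

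Groups follow the sample titles. Rows were kept by filterByExpr, scaled by TMM and fitted in edgeR 4.0.16 (R 4.3.3) as 1 model of 5 group means over all 10 libraries, with the quasi-likelihood test and Benjamini-Hochberg adjustment over 21475 genes. CPM use the TMM-scaled library size, and standard errors are the fold change over the root of the test statistic. Reads carry no molecular identifiers, so intervals and bounds cover counting error only. The 27 lists have 674 members, which are 673 distinct genes. Of the 674 members, 631 were tested, 21 were too low and 22 had no row of their own. Holding genes at 0 in a group at a bound of 3 counts per library moved the median of 1 list, other organs.

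Members and lists were chosen with earlier results of these data known. Named are all called genes, up to 6 members of a list with the smallest p and a set of Ran, immune, ER and leaf genes. The letters of the promoter motifs are common consensus forms and were not taken from the deposited files. The fit was tested on simulated data; alternatives are other scaling, filters, DESeq2 1.42.0, other library sets, a replicate block and leaving out each library.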

Additional observations from a re-analysis of the deposited data

How the results depend on the processing

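With DESeq2's size factors in place of TMM, a stricter filter (CPM of at least 1 in 2 libraries) or ribosomal RNA rows left out, 49 to 50 genes were called, 5 of them immune and 10 of the ER lists. With no filter on low counts 391 were called, 25 immune and 24 ER, and with DESeq2 399, 21 and 26. On the 4 compared libraries alone the counts were 0, 0 and 0, and on the 6 libraries with D0 in the header, a fit chosen after seeing the data, 0, 0 and 0 with 1292 genes at an unadjusted p below 0.05. File headers number the libraries Set1 and Set2 in every group, but no label says that these numbers pair libraries. Deviations from the group means correlated between same-numbered libraries at 0.12, 0.19 and 0.31 among the D0-headed groups (0.12 for the groups compared). Among the other pairs of groups they correlated at -0.01 to 0.07. With 2 numbers these values do not settle whether the libraries are paired, and the block was kept as an alternative. The replicate block on all 10 libraries gave 56 calls, 43 of them shared with the 53, with 4 immune and 11 ER genes; CRT1B and WRKY75 were then called (edgeR adjusted p of 0.0179 and 0.0482), while PR5, CRT3, NUP98B and GLYI4 were not (0.0501 to 0.0518). On the 6 D0-headed libraries the block gave 27, 16 shared, with 5 and 2. Leaving out each library gave 0 to 46 genes, 0 to 6 immune and 0 to 7 ER; without 1 library of the groups not compared 21 to 32 genes were called, and the cause was not tested. All 53 called genes kept their sign in all 19 alternatives; AIG1, AT2G18193, AT5G55150, CAX3, MOG1 and RAE1 were called in 16 of them and CRT3 in 2. Some uncalled genes changed sign, LHCB1.1 with a log2 fold change of 1.53 among them. SAG12 stood at -0.24 and -0.52 with the replicate block (10 and 6 libraries). Over the fits without 1 library the log2 fold change ran from -2.03 to 6.80 for SAG12, -2.69 to 6.01 for LHCB1.1, -0.77 to 0.33 for IRE1A, -0.31 to 1.80 for PAD4, -0.45 to 1.73 for EDS1, -0.14 to 0.63 for NPR1, -0.34 to 0.84 for BZIP60 and -0.19 to 0.41 for RBCS1A. With 2 libraries a group and a coefficient of variation of 45%, small changes were beyond reach.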
